A study of Drosophila melanogaster with 2 samples.

Results

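Distal Clk-eGFP peaks are the reproducible binding regions whose summit lay more than 2000 bp from the nearest annotated transcription start site of any gene. They were chosen by position alone, and 395 of the 2464 reproducible regions on genome build dm6 met the rule, or 16.0% (95% exact binomial interval 14.6 to 17.5). Of these, 314 had their summit in an intron, 58 lay between genes and 23 fell in an exon. The data came from chromatin immunoprecipitation followed by sequencing (ChIP-seq) of whole adult males of Drosophila melanogaster. The transgenic line stably expressed the clock protein Clk with a green fluorescent protein (eGFP) at its C-terminus, and the precipitation used an antibody against that tag, although the antibody entry of the labels names Clk itself. The study had 1 group with 2 biological replicates, so no second genotype, treatment or time could be compared. Age was recorded as unknown and the labels give no time of day, both of which limit the flies as a model of a rhythmic factor. Whole flies also mix all tissues, and a region bound in few cells cannot be told apart from one bound weakly in many.

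Clk is a basic helix-loop-helix transcription factor that pairs with Cycle and binds the E-box CACGTG and related sequences. The pair activates the repressors per and tim, the opposed regulators vri and Pdp1, and the repressor cwo, which together close the feedback loops of the fly clock. Much of the regulation of fly genes runs through enhancers, short DNA elements that act on a promoter from a distance and often sit in introns. Binding alone does not show which gene an element controls, so the genes below are given by position only. The level of a peak is the authors' signal value, a peak caller score that can be read only within one list. Rank 1 is the strongest region of its list.

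CACGTG is the known binding site of Clk, and 8 of the 11 distal summit windows that hold it are shown here, although it was not detectably more frequent at summits than beside them. Each is the 101 bp around the summit on the plus strand, from the RefSeq Release 6 assembly (dm6), with CACGTG in capitals.
Pdp1 intron, rank 98 (chr3L:7835242-7835342): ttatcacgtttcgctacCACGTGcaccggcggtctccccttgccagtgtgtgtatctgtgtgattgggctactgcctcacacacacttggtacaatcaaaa
Pdp1 intron, rank 1992 (chr3L:7837038-7837138): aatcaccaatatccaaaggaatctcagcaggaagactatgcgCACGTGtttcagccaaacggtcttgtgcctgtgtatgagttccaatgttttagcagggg
vri intron, rank 213 (chr2L:5303310-5303410): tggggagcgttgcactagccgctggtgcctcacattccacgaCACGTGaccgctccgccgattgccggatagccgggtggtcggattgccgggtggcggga
Eip74EF intron, rank 1164 (chr3L:17612370-17612470): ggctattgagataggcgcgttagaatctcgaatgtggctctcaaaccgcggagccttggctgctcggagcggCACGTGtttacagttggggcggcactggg
Glut4EF intron, rank 1416 (chr3R:9950163-9950263): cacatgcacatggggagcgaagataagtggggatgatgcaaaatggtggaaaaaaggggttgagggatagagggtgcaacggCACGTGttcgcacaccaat
Glut4EF intron, rank 1420 (chr3R:9932522-9932622): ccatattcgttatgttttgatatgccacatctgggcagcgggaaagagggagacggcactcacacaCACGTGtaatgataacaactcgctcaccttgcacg
Raf intron, rank 2010 (chrX:2303818-2303918): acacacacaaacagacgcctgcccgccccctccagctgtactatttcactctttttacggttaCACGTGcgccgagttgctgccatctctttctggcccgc
intergenic between tRNA:Ile-TAT-1-2 and CG13898, rank 169 (chr3L:784251-784351): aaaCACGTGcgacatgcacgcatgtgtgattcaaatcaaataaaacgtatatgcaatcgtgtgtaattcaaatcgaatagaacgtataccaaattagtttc
The E-box lay within 6 bp of the summit in vri and in the weaker Pdp1 peak, and over 30 bp from it in the stronger Pdp1 peak, the Glut4EF peak at rank 1416 and the intergenic peak.

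Most of the strongest distal peaks held no CACGTG, and 5 of these summits are shown because they are among the strongest intronic and intergenic ones. They are again plus strand, and the capitals in the simj window mark CACTGT, the reverse complement of ACAGTG.
CG32486 intron, rank 5 (chr3L:3060737-3060837): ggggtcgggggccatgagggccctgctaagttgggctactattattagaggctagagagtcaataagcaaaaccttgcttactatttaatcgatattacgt
spen intron, rank 12 (chr2L:166674-166774): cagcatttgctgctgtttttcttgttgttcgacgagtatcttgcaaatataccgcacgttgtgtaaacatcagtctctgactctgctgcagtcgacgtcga
simj intron, rank 83 (chr3L:10683045-10683145): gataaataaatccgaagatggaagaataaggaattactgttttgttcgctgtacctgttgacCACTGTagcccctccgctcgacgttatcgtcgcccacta
intergenic between COX7AL2 and CG31668, rank 28 (chr2L:2202360-2202460): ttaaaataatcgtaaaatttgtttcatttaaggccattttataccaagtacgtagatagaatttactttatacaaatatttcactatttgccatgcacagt
intergenic between Alp13 and lncRNA:CR45054, rank 82 (chr3R:10079710-10079810): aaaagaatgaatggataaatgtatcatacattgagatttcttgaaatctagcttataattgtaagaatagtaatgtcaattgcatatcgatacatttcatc
The GC content was 45.5% in each of the CG32486, spen and simj windows and 25.7% in both intergenic windows. The average over all distal summits was 39.7%, with 39.2% for intronic and 41.0% for intergenic summits. These 5 windows therefore do not show a difference between the classes.

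Distal DNA made up most of the chromosome arms and was sparsely bound. Bases more than 2000 bp from any start site made up 83.1 Mb, or 62.2% of the chromosome arms, and carried 4.75 peaks per Mb, against 41.0 per Mb of DNA nearer to a start site. Introns made up 49.8% of the distal bases but held 79.5% of the distal peaks (75.2 to 83.4), and intergenic DNA made up 34.7% of the bases but held 14.7% of the peaks (11.3 to 18.6). Distal introns thus carried 7.59 peaks per Mb and distal intergenic DNA 2.01 per Mb. Within the span from the first to the last reproducible peak of each arm, which leaves out the arm ends, the densities were 9.36 per Mb in introns and 3.13 per Mb between genes. The exonic peaks comprised 8 in 3′ untranslated regions, 8 in coding exons, 4 in noncoding exons and 3 in 5′ untranslated regions, at 1.78 per Mb. No distal summit lay in an annotated transposable element. This allows a share of up to 0.759% by the limit of 3 counts, with an exact upper bound of 0.930%. Over all reproducible peaks 1 of 2464 summits did, or 0.0406%, so the absence is not particular to distal peaks.

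Among the large arms the density of intergenic peaks was lowest on the X chromosome. Distal introns carried 6.87 peaks per Mb on X, against 6.78 to 9.15 per Mb on the other large arms. Distal intergenic DNA carried 0.483 per Mb on X, against 1.77 to 2.71 per Mb on the other large arms. Only 2 of the 58 intergenic peaks were on X, or 3.45%, whereas 55 of the 314 intronic peaks were, or 17.5%. Intronic minus intergenic, the difference was 14.1 percentage points (95% Newcombe interval 4.95 to 19.3). The X-linked intergenic peaks were also weak, at ranks 1741 and 1922. Males carry an unpaired X chromosome, and from these lists less DNA and less binding cannot be told apart.

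**Figure D1:**
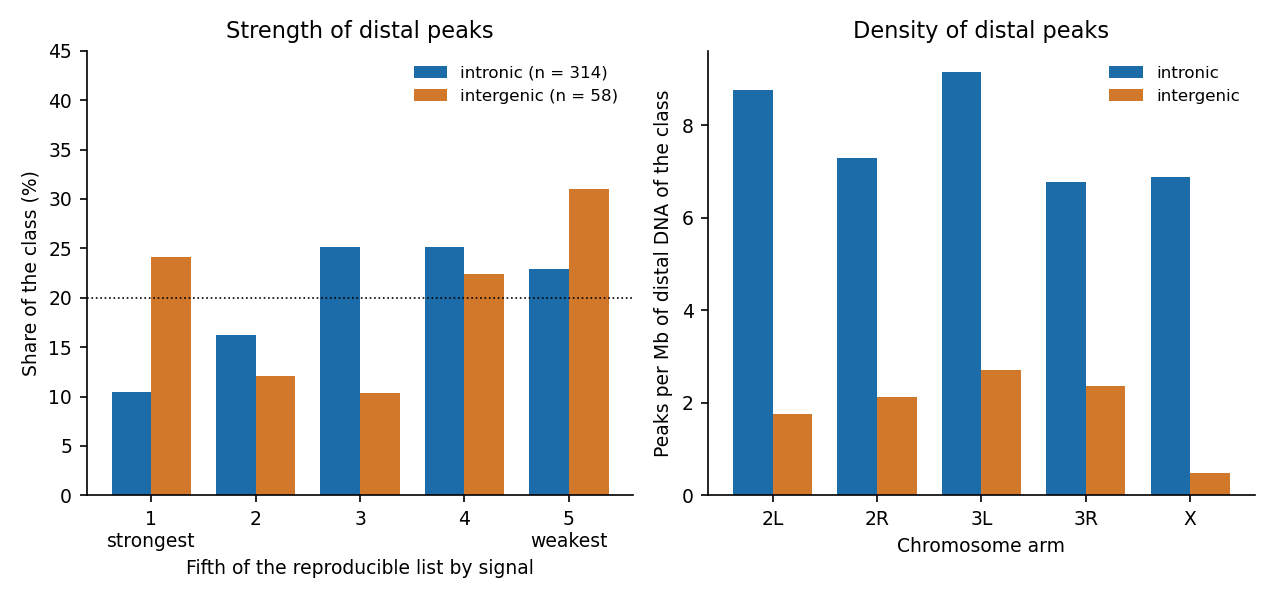
Left, share of the 314 intronic and of the 58 intergenic distal peaks in each 20% of the reproducible list by rank, with a dotted line at an even split; right, distal peaks per Mb of distal intron and distal intergenic DNA on each large arm. Intergenic peaks are most frequent in the strongest and the weakest 20%, and their density on X is 0.483 per Mb.

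Distal peaks were weaker than promoter peaks, and not detectably weaker than peaks at 501 to 2000 bp. Their signal ran from 72.4 to 935 with a median of 99.9 (quartiles 83.5 and 138), against a median of 115 (88.8 and 170) for the 1584 peaks within 500 bp of a start site. In the upper 50% of the list stood 40.5% of distal peaks and 54.2% of promoter peaks, a difference of -13.7 points (-19.0 to -8.17). The 485 peaks at 501 to 2000 bp had a median signal of 102 and 44.1% in the upper 50%, and distal minus these peaks the difference was -3.62 points (-10.1 to 2.95). The distal share of the list was 10.3% in the strongest 20%, then 13.2%, 17.8%, 19.1% and 19.7% in each 20% below it. Intronic and intergenic distal peaks had close medians, 99.9 and 93.9, but differed at the top. The strongest 20% held 33 intronic peaks, or 10.5%, and 14 intergenic peaks, or 24.1%, a difference of -13.6 points (-26.4 to -3.66). The upper quartile of signal was 130 for intronic and 179 for intergenic peaks.

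Below the reproducible list the same trend went on. Among all 30000 candidate regions of the pooled replicates, the distal share was 16.1% in the 3000 strongest and 52.5% in the 3000 weakest, and it was higher in each bin than in the one above it. The weakest bin was still under the 62.2% of bases that are distal. The make-up of the distal regions moved as well, as introns held 78.9% of them in the strongest bin and 54.5% in the weakest. Intergenic regions made up 14.3% of the distal regions in the strongest bin, and 362 of 1574 in the weakest. The weak candidates include background regions by the authors' own description, so their places cannot be read as binding.

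**Figure D2:**
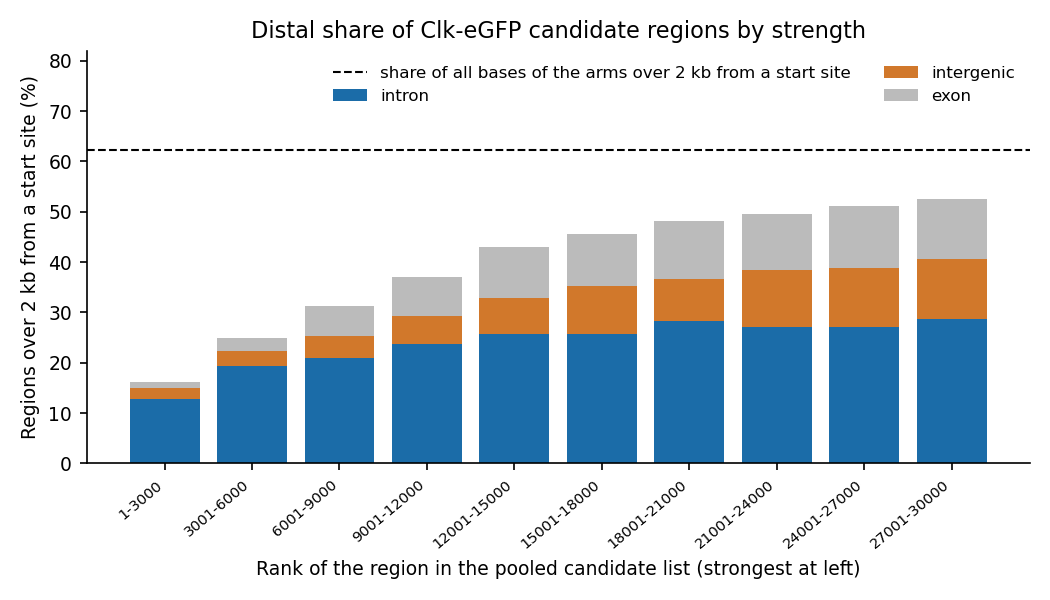
Percent of pooled candidate regions more than 2 kb from a start site, in bins of 3000 by rank, divided into intron, intergenic and exon; the dashed line is the share of all bases of the arms. The bars climb to 52.5% and stay under the line at 62.2%.

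The replicates found the distal peaks nearly as often as the others. A candidate summit lay within 150 bp in both replicates for 381 of the 395 distal peaks, or 96.5% (94.1 to 98.0), next to 97.3% of all reproducible peaks. All 58 intergenic peaks and 300 of the 314 intronic peaks met this rule. The 14 that failed were intronic, and 13 of them lacked the candidate in replicate 2. These 13, named after their values were seen, lay in gce, raw, Lrch, Kr-h1, wts, Eip75B, Pdp1, ftz-f1, Spn, crol, spin, tai and Snoo, and the peak without a candidate in replicate 1 lay in CG45088 and CG6191, which overlap. The stricter rule, a place among the 2464 strongest regions of both replicates, held for 63.3% of distal and 71.3% of promoter peaks, a difference of -7.98 points (-13.3 to -2.85). Peaks at 501 to 2000 bp met it in 64.9% of cases, a difference from distal peaks of -1.66 points (-8.02 to 4.68). Intronic and intergenic peaks met it in 64.3% and 58.6% of cases, a difference of 5.71 points (-7.24 to 19.5). The summits lay at a median of 6 bp from the nearest candidate summit in replicate 1 and 19 bp in replicate 2. The reproducible list comes from both replicates pooled, so it shares reads with the candidates of each. These shares and distances are therefore not independent agreement, and the distance from replicate 1 to replicate 2 was not measured.

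**Figure D3:**
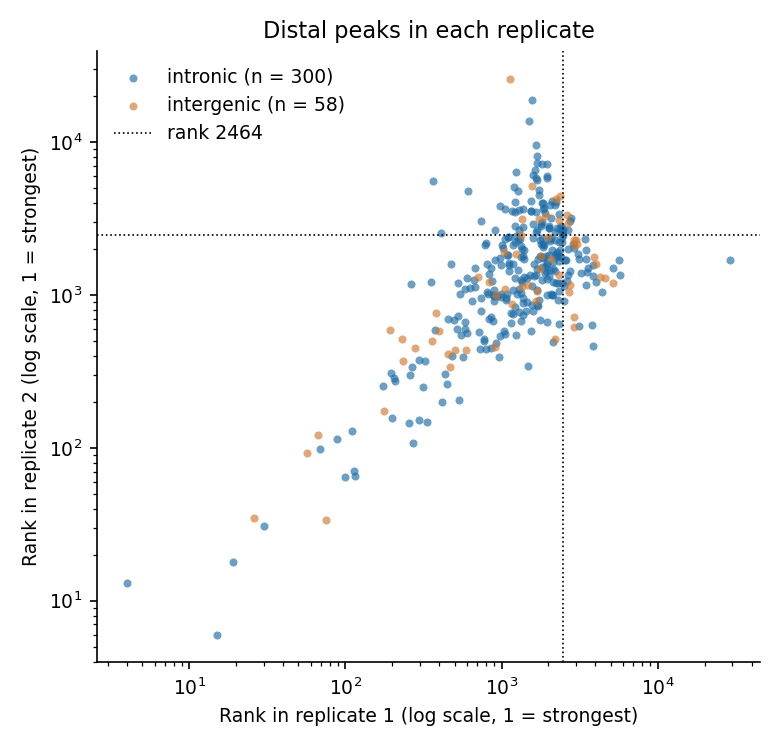
Rank of each intronic (300) and intergenic (58) distal peak in replicate 1 and replicate 2 on log axes, for peaks with a candidate within 150 bp in both; dotted lines mark rank 2464. The strongest peaks lie near the diagonal, and the spread widens among the weaker ones.

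The strongest intronic peak lay inside CG32486 on 3L (chr3L:3060623-3060988), 5708 bp from the nearest start site, and ranked 5 of 2464. Its signal was 667 in replicate 1 and 277 in replicate 2, where it ranked 4 and 13. The spen peak at chr2L:166362-167052, in a gene for a nuclear RNA-binding corepressor, had signals of 456 and 353 and ranked 15 and 6 in the same order of replicates. Tlk, which encodes the Tousled-like kinase of chromatin assembly, held the next of these (chrX:3742060-3742381), with signals of 436 and 258 and ranks 19 and 18. CG12769 came next with signals of 371 and 222. All 4 therefore stood among the 31 strongest regions of each replicate.

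Several of the other 6 intronic peaks at the top lay in genes for chromatin or transcription proteins. The simj gene, for a subunit of the NuRD remodelling complex, had its summit at 3L 10683095 with signals of 287 in replicate 1 and 139 in replicate 2. The Kdm2 gene, for a histone demethylase, had 226 and 159. The upSET gene, for a SET domain protein of chromatin, had 260 and 133. The tara gene, for a nuclear regulator known from sleep and cell cycle work, had 229 and 125, and smash, for a protein of cell junctions, had 243 and 160. The Pdp1 peak had 226 and 157. No list of chromatin genes was counted, so these are single cases and not a theme.

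The strongest intergenic peak lay between COX7AL2 and CG31668 on 2L (chr2L:2202196-2202601), 3756 bp from the nearest start site. Its signal was 394 in replicate 1 and 212 in replicate 2, at ranks 26 and 35. A weaker summit at 2L 2201295 stood 1115 bp away in the same gap, with signals of 163 and 76.4. On 2R, a peak between lncRNA:CR44761 and Ppa had signals of 280 and 214, and one between Su(z)2, a Polycomb group gene, and CG13323 had 308 and 143 at 11978 bp from a start site. The peak between Alp13 and lncRNA:CR45054 had 292 and 130. Each of these sites other than the weaker summit ranked 122 or better in both replicates.

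Long empty stretches held some of the intergenic peaks. The peak at 3L 784301, which carries an E-box, lay 13938 bp from the nearest start site, that of a tRNA gene, and had signals of 185 and 110. The gap before CG43245 on 3L held the most remote peak of the list, 33244 bp from a start site at rank 1840, beside a stronger one at 31951 bp with signals of 176 and 60.2. Another in that gap lay 19134 bp away at rank 2201, and beyond CG43245 stood one at rank 299. Rh5, a gene for an opsin of photoreceptor cells, bordered a gap with a peak at rank 326. Of the intergenic peaks 36, or 62.1%, lay upstream of the nearest start site. The same share over all distal intergenic bases was not computed, so 62.1% cannot be read as a trait of the peaks.

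Most distal peaks were not far beyond the limit of 2000 bp. The distance to a start site had a median of 4163 bp, at 4384 bp for intronic and 3689 bp for intergenic peaks. Between 2001 and 5000 bp lay 249 of the 395, and 59 lay beyond 10000 bp, of which 49 were intronic and 9 intergenic. The peaks just past the limit were 1 in sev at 2015 bp and rank 2089 and 1 in tna at 2021 bp and rank 1594. Just short of it stood 1 on X at 1998 bp and rank 642 and 1 near Orai at 1995 bp and rank 2432.

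The intronic peaks fell in 227 genes, of which 219 code for proteins. One peak each was found in 164 of these genes, and 63 held more. The host introns were long, with a median length of 11376 bp (quartiles 5474 and 21349), and 216 of the 314 summits, or 68.8%, lay in the first intron of at least 1 transcript. The distance rule itself favours long introns. The lengths and first-intron share of all distal intron bases were not computed, so neither value can be read as a trait of the peaks. The nearest start site belonged to a host gene for 238 of the 314. Counting exonic summits as well, 237 of the 13945 protein-coding genes contained a distal summit, or 1.7%, and 4.29% of the 5528 genes that contain any base over 2000 bp from a start site. Genes with a distal summit had a median length of 24706 bp, against 6386 bp for the genes with such bases.

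Genes with a distal peak inside often had a promoter peak too. A peak within 500 bp of an own start site was present for 98 of the 237 genes, or 41.4% (35.0 to 47.9), against 910 of the 5291 with distal bases and no distal peak, or 17.2% (16.2 to 18.2). Among genes of at least 20 kb the shares were 44.6% of 139 and 14.0% of 874. Among genes under 20 kb they were 36.7% of 98 and 17.8% of 4417. Genes with a distal peak had a median of 2 start sites and the others of 1, and among genes of at least 20 kb the medians were 3 and 2. The part of this difference in start sites was not tested.

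**Figure D4:**
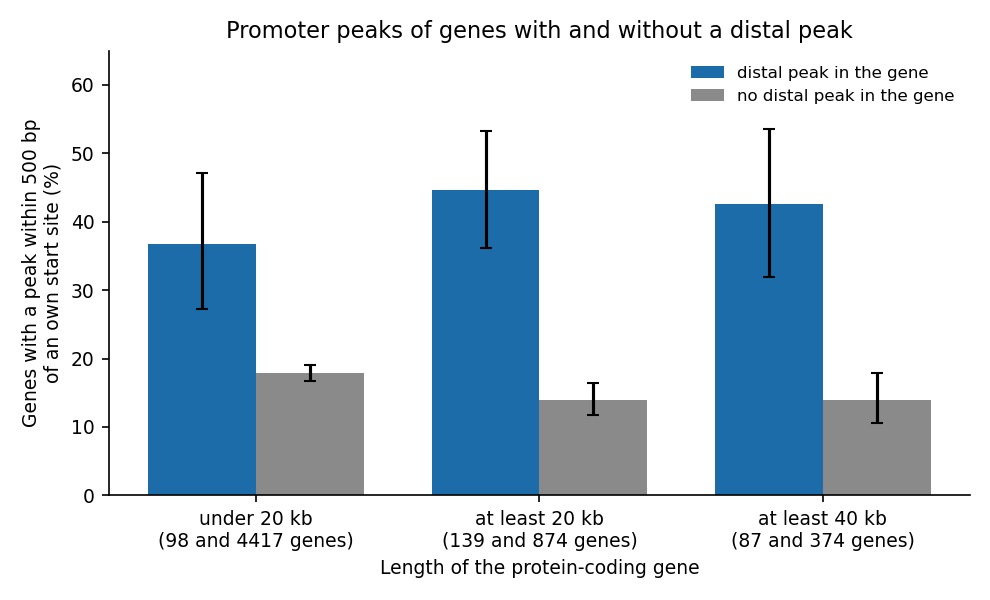
Percent of protein-coding genes with a peak within 500 bp of an own start site, for genes with and without a distal peak, by gene length; bars show the share and error bars the 95% exact binomial interval. Genes with a distal peak stand higher in each of the 3 length classes, of which the class of at least 40 kb lies within that of at least 20 kb.

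Distal peaks lay near other reproducible peaks more often than promoter peaks did. A reproducible peak that did not overlap stood within 5000 bp of 50.6% of distal summits and 37.8% of promoter summits, a difference of 12.9 points (7.41 to 18.3). The 485 peaks at 501 to 2000 bp had a share of 54.4%, and distal minus these peaks the difference was -3.80 points (-10.4 to 2.82). Another distal peak, overlapping or not, stood within 5000 bp of 149 of the 395 distal summits, or 37.7%. For intronic and intergenic peaks the shares were 49.4% and 55.2%, a difference of -5.81 points (-19.1 to 8.05). The list splits some broad regions into several summits, so 46 of the distal regions overlapped another reproducible region, and the 395 regions merged into 373 loci. Overlapping members share sequence and reads and are not independent.

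The genes with the most distal peaks were tara and Glut4EF, with 7 each, then Pdp1, sbb and ftz-f1 with 5 each. In tara 4 of the 7 lay in 1 stretch of under 2 kb, at 3R 16235713, 16236010, 16236317 and 16237005, and their ranks ran from 512 to 1794. Glut4EF encodes a transcription factor, spans 120684 bp and overlaps CG46467, which contains the same 7 peaks. Its distal peaks ranked between 1115 and 2215. sbb, for a nuclear protein of transcriptional repression, had its strongest at 2R 18337216 with rank 202, which is 20080 bp from a start site. Below these, and named after their values were seen, spen, simj, atos, Smr, crp and CG3764 held 4 each. Overlapping regions were counted separately in this ranking, as in Pdp1, ftz-f1, spen and atos. Smr encodes a corepressor of nuclear receptors.

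**Figure D5:**
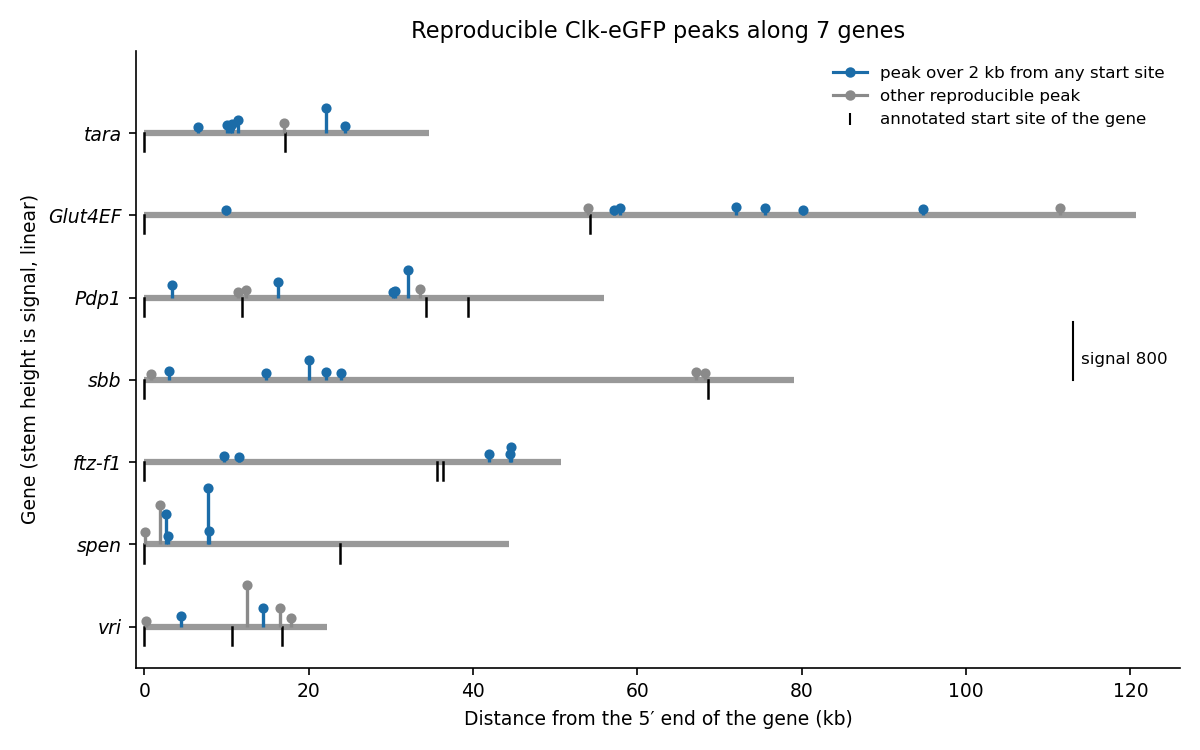
Reproducible peaks along 7 genes drawn to scale from each gene's 5′ end in kb; stem height is the signal on a linear scale, colour separates peaks over 2 kb from any start site from the others, and black ticks mark the gene's start sites. Distal peaks of ftz-f1 gather in 2 stretches, at 9.75 to 11.5 kb and 41.9 to 44.7 kb. Those of tara lie from 6.49 to 24.4 kb, of sbb from 3.03 to 24.0 kb and of Glut4EF from 9.88 to 94.8 kb.

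Of 6 listed genes of the clock's feedback loop, all with distal bases, 4 held a distal peak. Among all protein-coding genes with distal bases 4.29% did, and 13.7% of those of at least 20 kb. The gene cyc, for Cycle, was counted with the other clock components below and held none. In Pdp1, which encodes a bZIP activator of Clk, the 5 distal peaks ranked 98, 333, 492, 1888 and 1992, and 2 of them carried CACGTG. The weak pair at 1888 and 1992 overlapped, and the first of that pair had no candidate summit within 150 bp in replicate 2. In vri, whose bZIP product represses Clk, the distal peaks ranked 213 and 665. The vri peak at rank 213 lay between a site at rank 33, 1741 bp from a start site, and one at rank 221, 219 bp from a start site. In cwo, for a bHLH repressor, the single distal peak ranked 1534, with replicate ranks of 3812 and 636. In Clk itself 2 overlapping peaks ranked 731 and 2140, and the second ranked 28961 in replicate 1. The Clk values have a further limit, since the transgene adds copies of Clk sequence and its extent was not given in the sources used here. No distal peak lay in per or tim, both of which had a peak within 500 bp of a start site.

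Among 18 genes for other clock components, of which 15 contain distal bases, 2 held a distal peak, next to 4.29% of all protein-coding genes with distal bases. The wdb gene, for a regulatory subunit of protein phosphatase 2A, had 1 at rank 1117, with ranks 1110 in replicate 1 and 1441 in replicate 2. The nmo gene, for the kinase Nemo, had 1 at rank 1472, with ranks 1243 and 2453. The others, sgg, cry, mts, tws, slmb and dco among them, had none.

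Genes that respond to the steroid ecdysone held distal peaks in 6 of 13 cases. The nuclear receptor gene ftz-f1 had 5, led by one at rank 364 with replicate ranks of 323 and 370. Eip74EF, for an ETS factor, had 2 at ranks 652 and 1164, and the weaker carried an E-box. Hr4 had 3, led by rank 773, Eip93F had 1 at rank 1076, and EcR, the receptor gene itself, had 1 at rank 1611. Eip75B had 3, the strongest at rank 1716 with no candidate within 150 bp in replicate 2. These are long genes, with a median of 50703 bp over the list, and among all protein-coding genes with distal bases and a length of at least 40 kb 18.9% held a distal peak.

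The other lists differed in how many genes held a distal peak. None of 10 ion channel genes, with a median length of 51457 bp, held a distal peak, and 1 of 14 genes for neuronal adhesion and synapse proteins did, namely Nrg at rank 1608. Among protein-coding genes with distal bases, 13.7% of those of at least 20 kb and 18.9% of those of at least 40 kb held one. Lists this small cannot show a lack against these shares. Of 10 muscle genes only Mef2, for a muscle transcription factor, held any, with 3 led by rank 712. Of 9 insulin and TOR genes found in the annotation 3 did, foxo with 3 led by rank 1362, S6k at rank 770 and InR at rank 1937. The gene mTor stood in the list under another symbol and was not counted. The 92 ribosomal protein genes had none, but only 4 of them contain distal bases. Markers of fat body, testis, gut, neurons and muscle, 5 genes each, held none. Only 2 of the fat body, 2 of the testis and 0 of the gut markers contain distal bases, and all 5 of the neuron and of the muscle markers do. Binding cannot show which tissue the chromatin came from. The lists were read against 1.7% of all protein-coding genes and 4.29% of those with distal bases, and no test of a list was made.

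The E-box was rare at distal summits and was not detectably more frequent there than beside them. CACGTG, searched on both strands within 50 bp of the summit, occurred in 11 of 395 windows, or 2.78% (1.40 to 4.93). In equal windows centred 400 bp to either side it occurred in 2.28% and 1.01%. The gain over the higher flank was 0.506 points, with an interval of -1.71 to 2.72 (exact two-sided McNemar test, p = 0.824). Intronic windows held it in 9 of 314 cases, or 2.87%, and intergenic windows in 2 of 58, or 3.45%. Distal windows held it more often than promoter windows, at 2.78% and 1.07%, a difference of 1.71 points (0.332 to 3.88). Over all reproducible peaks the share was 1.34%. The 3 strongest of the 11 peaks ranked 98, 169 and 213, and the other 8 ranked 1164 or lower, in Eip74EF, Kr-h1, Glut4EF, Raf, the overlapping genes CG43739 and sky, and Pdp1, and between lncRNA:CR44526 and SrpRbeta. Glut4EF held 2 of them. Kr-h1 encodes a zinc finger factor of the juvenile hormone response and Raf a kinase of growth factor signalling.

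Several other motifs differed in frequency between distal and promoter peaks, but not detectably between distal peaks and those at 501 to 2000 bp. The general form CANNTG, which includes the E-box above, occurred in 42.8% of distal and 36.2% of promoter windows, a difference of 6.61 points (1.26 to 12.1), but in 40.8% and 42.8% of the distal flanks. GAGAG, the core of GAGA factor sites, occurred in 19.0% of distal and 12.1% of promoter windows, a difference of 6.93 points (2.98 to 11.4). Among all reproducible peaks it was in 14.3%, and the distal flanks held it in 16.2% and 17.0%. Promoter summits minus their higher flank gave -4.04 points for CANNTG (-7.43 to -0.653) and -2.97 points for GAGAG (-5.33 to -0.608). Against the other flank neither was detectably lower (exact McNemar test, p = 0.355 and p = 0.262). Distal summits minus their higher flank gave 0 points (-6.58 to 6.58) and 2.03 points (-3.36 to 7.41). The differences from promoter windows in CANNTG and GAGAG thus do not show a gain at distal summits. TATCGATA, the DNA replication-related element of housekeeping promoters, occurred in 0.506% of distal and 3.35% of promoter windows, a difference of -2.84 points (-3.91 to -1.31), and in 2.23% of all. GGTCACAC, a core promoter motif, occurred in 0 of 395 distal windows, with an exact upper bound of 0.930%, and in 1.26% of promoter windows. The 485 peaks at 501 to 2000 bp held CANNTG in 42.5%, GAGAG in 17.7%, TATCGATA in 0% and GGTCACAC in 0.206% of windows. For each of the 11 listed motifs, CACGTG included, the interval of distal minus these peaks held 0. The GC content was 39.7% at distal summits and 38.1% at promoter summits, with distal flanks at 41.9% and 40.7%. TGANTCA, the form bound by AP-1 proteins, occurred in 6 of 314 intronic windows and 5 of 58 intergenic ones, at 1.91% and 8.62%, a difference of -6.71 points (-16.8 to -1.36). Against its flanks, TGANTCA was not detectably more frequent at intergenic summits, where both flanks held it in 3.45% (exact McNemar test, p = 0.453), and at intronic summits the flanks held it in 3.18% and 2.23%. The remaining motifs searched were the repeat CACACA, the GATA factor form AGATAA, the bZIP forms TTATGTAA and TTACGTAA, and CAGGTA of the zinc finger protein Zelda, and for none did the interval of distal minus promoter leave out 0. The 33 motif differences computed between classes are descriptions over regions, with no adjustment for their number.

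Over all 2080 6-mers, counted with their reverse complements, none differed between distal summits and flanks at an adjusted p below 0.05 (exact McNemar test, Benjamini-Hochberg), with 0% called higher and 0% called lower. At an unadjusted p below 0.05 there were 122, of which 18 were higher and 104 lower, and the smallest adjusted p was 0.124. Each 6-mer was tested against the flank with the larger share, which favours calls of lower. The counts of higher and lower therefore cannot be compared with each other. Among the 6-mers more frequent at summits the smallest p belonged to ACAGTG, which is named after its values were seen. It occurred in 45 of 395 distal windows, or 11.4%, against 4.81% of each flank (exact McNemar test, p = 8.62e-04, adjusted p = 0.299). With 1 summit per group of overlapping regions the share was 10.5% of 373 loci, against 5.09% and 4.83% of their flanks. Intronic windows held it in 12.4% and intergenic ones in 6.90%.

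ACAGTG was then counted in regions that had no part in its choice. At peaks 501 to 2000 bp from a start site it occurred in 11.1% of 485 summit windows, against 4.74% and 3.92% of their flanks (exact McNemar test, adjusted p = 4.89e-04 over these 4 region sets). At promoter peaks it occurred in 8.33% of 1584, against 4.29% and 4.23% (exact McNemar test, adjusted p = 1.24e-05). Distal candidates ranked 2465 to 10000 held it in 5.99% of 2136, against 3.84% of each flank (exact McNemar test, adjusted p = 0.00177). Weaker distal candidates held it in 3.80% of 9438, against 3.69% and 3.99% (exact McNemar test, unadjusted p = 0.522). The higher share at summits was thus also present outside the distal class, and was not detectable among the weakest candidates.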

How the data were processed

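Chromatin from whole adult male flies of 1 Clk-eGFP line was measured in 2 biological replicates, per the labels. That the replicates came from separate fly collections is not stated beyond their label. The deposited dm6 lists hold candidate regions of each replicate and of both pooled, called by the authors against a control, and a list thresholded by the irreproducible discovery rate (IDR), per the file headers. Neither aligner, peak caller nor IDR threshold is given in the sources used here, and the control data, signal tracks and dm3 lists were not used here. The score is the deposited signal value of the authors' peak caller. Each candidate list held 30000 regions, and the reproducible list is the head of the pooled list, so its regions were not chosen by agreement peak by peak. No read counts were used and depth is unknown, so intervals cover counting error over regions only.

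Every transcript's 5′ end was a start site, from Ensembl release 115 (BDGP6), leaving out 5809 transposable element insertions. A summit was placed by precedence in a 5′ or 3′ untranslated region, coding exon, noncoding exon, intron or intergenic DNA. Coordinates are 1-based. Sequence came from the RefSeq Release 6 assembly, and no region ran past a chromosome end. Shares carry exact binomial (Clopper-Pearson) intervals and differences between classes of regions Newcombe intervals, with no p, since regions are not replicates. Motifs were compared with flank windows of the same peak by exact McNemar tests, against the flank with the larger share. The 6-mer scan was also run on simulated random windows, with equal base composition at summit and flank and no overlaps. It called a planted word at the largest share tried. Real summits differ in base composition from their flanks and some windows overlap, so how small a gain it could detect here is unknown.

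The members and gene lists were chosen with earlier results of these data known. The peaks named were the 10 strongest intronic and 10 strongest intergenic ones, those in clock genes, those with CACGTG, those nearest to the distance limit, those in the 5 genes with the most distal peaks, and up to 4 genes of each other list. Exceptions are stated beside them. Alternatives changed the distance, start sites, summit position, replicates, sharing rule, windows and peak threshold. The software was SciPy 1.17.1 and pandas 2.3.3 on NumPy 2.4.6 under Python 3.11.15, and figures used matplotlib 3.10.9.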

Additional observations from a re-analysis of the deposited data

How the results depend on the processing

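The distal share depended on its definition. It was 25.3% with a limit of 1000 bp, 5.93% with 5000 bp, 19.7% with start sites of protein-coding genes only and 13.0% in the upper 50% of the list, against 16.0% as reported. The intronic share of distal peaks was 87.0% with 5000 bp and 71.2% with protein-coding start sites, against 79.5%. Candidates in both replicates were found for 70.6% of distal peaks within 50 bp, 99.5% within 300 bp, 100% by overlap and 63.3% among the strongest regions of each replicate, against 96.5%. One 6-mer was called lower, and none higher, with flanks at 800 bp, and 1 was called lower with 1 summit per overlapping group, an alternative chosen after seeing the data. Introns made up 52.1% of distal bases within the span of the reproducible peaks, also chosen after seeing the data, against 49.8%. Leaving out either replicate gave distal shares of 15.9% to 16.6%, intronic shares of 78.8% to 81.9% and E-box gains of 0.488 to 1.27 points, and no 6-mer was called. The E-box gain stayed between 0.488 and 1.52 points over its 6 alternatives and missed the threshold in each. Counting transposable element ends, chosen after seeing the data, gave 15.5% and 79.3%. No direction reversed. The cause of these shifts was not tested beyond the construction of each alternative. No paired analysis was possible because the study has 1 group.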
